A study of Mus musculus with 2 samples.

Results

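Wip1 KO and wild-type (WT) mice of 3 months were compared by their liver RNA, taken 24 h after partial hepatectomy, on 1 oligonucleotide array with a colour channel for each genotype. Partial hepatectomy removes part of the liver, and the remaining tissue then grows back. Wip1 KO RNA carried the dye Cy5 and WT RNA the dye Cy3. A second array of the same design held Wip1 KO RNA and WT RNA from 36 h. It is used for values set side by side and, together with the 24 h array, to pick the brightest probe of a gene. All animals had been operated on, no array held RNA of unoperated liver, and the knockout allele, strain, sex and number of animals behind each channel are not given in the sources used here. The genes described are those whose signal in both channels exceeded the background around the spot by over 2 of its SDs, which held for 8018 of the 19439 genes on the array (41.2%).

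In regrowing liver, hepatocytes leave rest, replicate their DNA and divide, first near the portal vein, while the tissue goes on making plasma proteins and clearing ammonia, bile acids and drugs. Ductal, endothelial and stellate cells divide later, and stellate cells lay down new matrix. Wip1, encoded by Ppm1d, is a phosphatase of the PPM family that is induced by p53 and removes phosphate from p53, from p38 MAP kinase and from kinases of the DNA damage response.

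Each ratio comes from a single hybridisation, so no test and no p-value was possible and the spread between animals is unknown. Without a dye swap, an effect of the dye and of the genotype on a probe cannot be told apart. Within the array, repeated spots of 12 control sequences had a pooled SD of 0.11 log2 units. Different probes for the same gene, available for 847 genes, had a pooled SD of 0.26 log2 units, which is a factor of 1.20. All levels below are normalised intensities that can be compared between the channels of a probe but not between probes. All ratios are log2 of Wip1 KO over WT, so that 1 stands for 2-fold higher in Wip1 KO. The single Ppm1d probe read 6 in Wip1 KO over a local background of 2 and 30 in WT over a local background of 23.5, within 1 background SD in both channels. The targeted gene therefore gave no level in either genotype, and the channel identities rest on the labels.

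Markers of hepatocytes matched the labelled tissue. Albumin (Alb) read 37057 in Wip1 KO and 27282 in WT, and the transcription factor gene Hnf4a read 3206 in Wip1 KO and 2992 in WT. Of 12 markers of pancreas, skeletal muscle and fat on the array, only Cela2a (406 in Wip1 KO, 272 in WT) and Fabp4 (2375 in Wip1 KO, 2029 in WT) were above background in both channels. None of 7 markers of T, B and NK cells was above background in either channel. In a longer list of lymphocyte and NK genes, 12 of 34 on the array were measured and 7 more were above background in WT only. Of those 12, 10 were above 0 (median 0.34, or -0.015 over all 34), none of them 2-fold apart.

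Most genes differed little between the genotypes. The median log2 ratio of the 8018 genes was 0.01, the quartiles were -0.20 and 0.24, and 89.05% lay within 1.5-fold either way. At least 2-fold higher in Wip1 KO were 122 genes (1.52% of those measured), and at least 2-fold lower were 62 (0.773%), together 2.29%. Above 0 were 51.8% of the measured genes. These shares are the background for the group counts below. In the 4-fold range stood 9 genes higher and 10 lower. The direction of all 184 genes was the same under 5 other ways to compute the ratio, while 81 of the 122 and 55 of the 62 stayed past 2-fold under all 5. Median centring in place of loess lowered the median of measured probes to -0.11 and gave 84 genes higher and 92 lower. Of the called genes with several measured probes, 14 of 16 higher genes and 11 of 13 lower genes had every probe on the same side of 0.

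**Figure D1:**
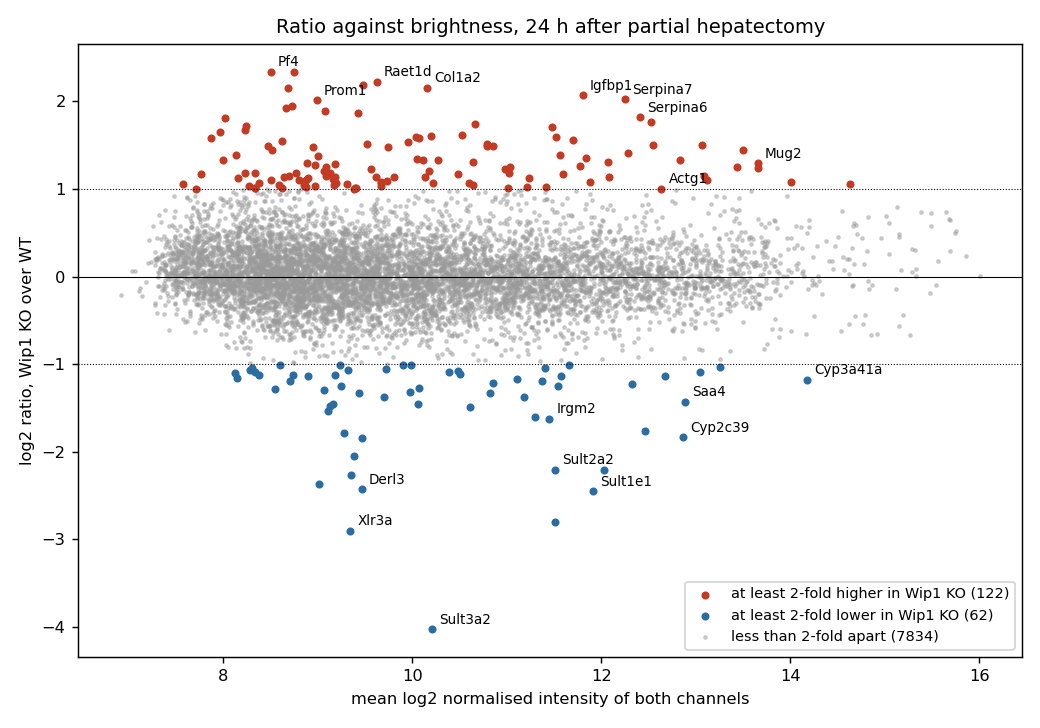
Log2 ratio of Wip1 KO over WT (vertical axis) against the mean log2 normalised intensity of both channels (horizontal axis) for the 8018 measured genes at 24 h, 1 point per gene, with dotted lines at 2-fold. The 122 genes at least 2-fold higher and the 62 at least 2-fold lower in Wip1 KO include dim and bright genes, and Sult3a2 is the lowest point at -4.02.

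The threshold itself separates like values. Pcolce, Actg1 and Ms4a7 were just inside it at 1.00, and Edn1 (1.00 when rounded), Capg and Ckap4 fell just short of it. On the lower side Irs2 was the last gene inside at -1.004 and Chil3 the first outside at -0.99.

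Among genes brighter than the median, Raet1d had the highest ratio. Its product is a ligand of NKG2D, the activating receptor of NK cells, and it read 1704 in Wip1 KO and 364 in WT, with its 2 probes at 1.84 and 2.23. Igfbp1, a secreted binding protein for insulin-like growth factors made by hepatocytes, read 7301 in Wip1 KO and 1742 in WT. Serpina7, the thyroxine carrier, read 9792 in Wip1 KO and 2406 in WT, and all 3 of its probes were above 1 (lowest 1.15). Also in this group were Glipr1l2 (2958 in Wip1 KO, 885 in WT), the phosphatidylinositol kinase gene Pi4k2a (1822 in Wip1 KO, 602 in WT) and the reticulophagy receptor gene Retreg1 (5118 in Wip1 KO, 1693 in WT).

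Metabolic enzymes led the other end among the brighter genes. Sult3a2, a cytosolic sulfotransferase, read 293 in Wip1 KO and 4764 in WT, a 16.2-fold difference. Outside metabolism, Efna1, a ligand of Eph receptors, read 1444 in Wip1 KO and 4395 in WT. The co-chaperone gene Dnajc12 read 933 in Wip1 KO and 2625 in WT, and G0s2, an inhibitor of the lipase ATGL, read 644 in Wip1 KO and 1769 in WT on its brighter probe, with both probes below -1.

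**Figure D2:**
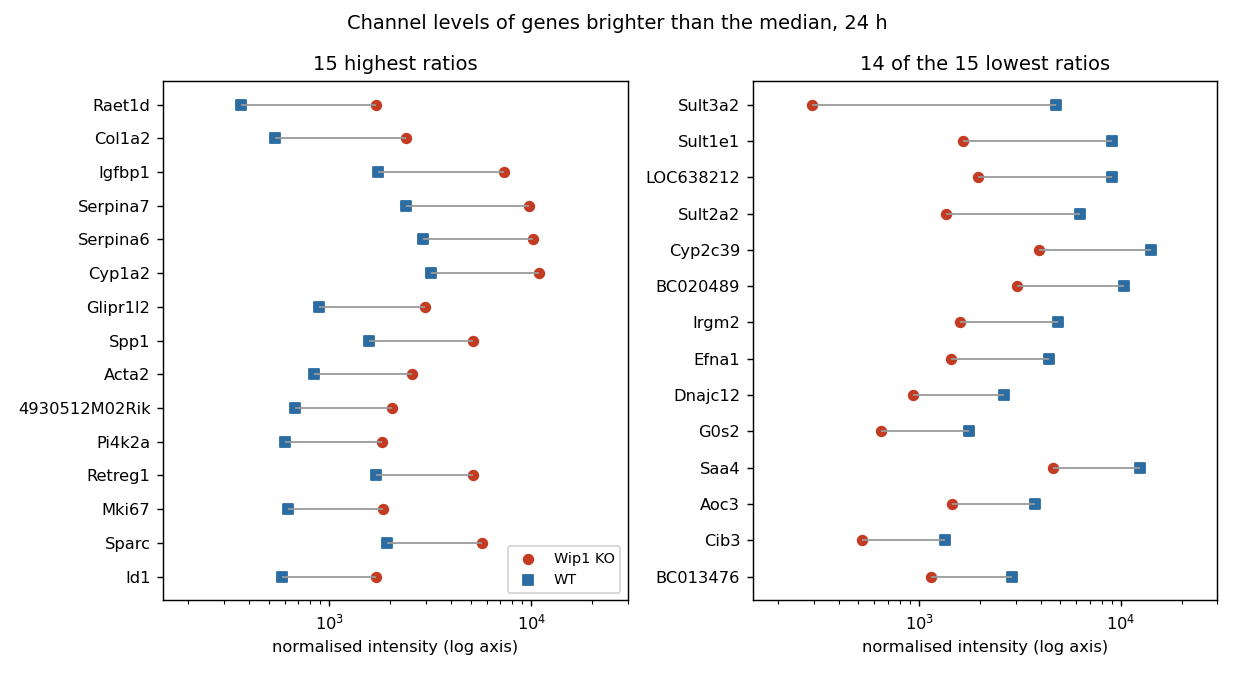
Normalised intensity on a log axis in Wip1 KO (red circles) and WT (blue squares) for the 15 genes with the highest and 14 of the 15 with the lowest ratio among measured genes brighter than the median at 24 h, 1 array with no replicate. Grey lines join the channels of a gene, and Sult3a2 has the longest line, with 293 in Wip1 KO and 4764 in WT.

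Genes of extracellular matrix were higher in Wip1 KO. Of 13 measured collagen genes 11 were above 0 (median 0.69, against 0.01 for all genes). Of the 13, 4 passed 2-fold (30.8%, against 1.52% of all measured genes). Col1a2, the second chain of type I collagen, read 2406 in Wip1 KO and 540 in WT. Its partner chain Col1a1 read 620 in Wip1 KO and 316 in WT, a log2 ratio of 0.97 that just missed the threshold. All 3 chains of type V collagen, which starts type I fibrils, were higher, with Col5a1 at 535 in Wip1 KO and 167 in WT, Col5a2 at 743 in Wip1 KO and 302 in WT, and Col5a3 at 0.69. Col14a1, a collagen of the fibril surface, read 811 in Wip1 KO and 351 in WT. The lower of the 2 genes below 0 was Col8a2 at -0.54. The 23 collagen genes that were below background in both channels are not counted here, and with all 38 collagen genes of the array the median was 0.12.

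Other matrix genes followed the same direction. Of 27 measured genes for matrix proteins, their proteases and stellate cell products, 26 were above 0 (median 0.54). Over all 59 on the array the median was 0.38. In WT only, 8 more of the list were above background, and in Wip1 KO only 1. Of the 27, 5 passed 2-fold (18.5%, against 1.52% of all measured genes). Sparc, a collagen-binding glycoprotein, read 5703 in Wip1 KO and 1933 in WT. The protease inhibitor gene Timp1 read 594 in Wip1 KO and 212 in WT, and fibrillin 1 (Fbn1) read 455 in Wip1 KO and 173 in WT. Ccn2, the connective tissue growth factor, read 822 in Wip1 KO and 318 in WT. Serpinh1, the collagen chaperone of the endoplasmic reticulum, read 1754 in Wip1 KO and 758 in WT. The abundant matrix genes Fn1 (0.26) and Dcn (0.16) differed by less than the spread between probes, and Timp3 was at -0.05.

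The actin cytoskeleton moved with the matrix. Of 35 measured genes 30 were above 0 (median 0.54, or 0.39 over all 44 on the array). Of the 35, 5 passed 2-fold (14.3%, against 1.52% of all measured genes). Acta2, the smooth muscle actin of myofibroblasts and vessel walls, read 2575 in Wip1 KO and 839 in WT. The intermediate filament gene Vim read 4902 in Wip1 KO and 1874 in WT, Tpm2 (a tropomyosin) read 533 in Wip1 KO and 248 in WT, and both probes of Tagln, a smooth muscle actin-binding protein, were above 1. Actins of all cells shared the direction, since Actg1 read 9007 in Wip1 KO and 4493 in WT, and Actb read 31702 in Wip1 KO and 21235 in WT. A separate control sequence for beta-actin, spotted 48 times, had a mean log2 ratio of 0.63 ± 0.11 (SD over 48 spots), with its lowest spot at 0.42, so this gene differed between the channels by more than the spread of repeated spots. Control spots for the ribosomal gene Rpl5 averaged 0.45 ± 0.13 (SD over 48 spots), and those for Gapdh averaged -0.06 ± 0.10 (SD over 48 spots).

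Bile duct markers and keratins were higher as well. Of 17 measured genes of bile duct and progenitor cells 13 were above 0 (median 0.59, or 0.23 over all 37 on the array). Prom1, a membrane protein of progenitor cells, read 1019 in Wip1 KO and 252 in WT, and Spp1 (osteopontin) read 5146 in Wip1 KO and 1569 in WT. Of 9 measured keratins 8 were above 0 with none 2-fold apart (median 0.56, or 0.00 over all 52 on the array, most of them below background). These included the hepatocyte pair Krt8 (0.74) and Krt18 (0.58) besides the duct keratins Krt19 (0.83) and Krt7 (0.56).

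Because whole liver was measured, fewer cells of a type and less RNA per cell cannot be told apart in any of these groups. The markers of each cell type were summed within each channel, which does not separate these either. Levels cannot be compared between probes, so such a sum follows its brightest probes. In the stellate sum, Col1a2 read 2406 in Wip1 KO and 540 in WT, and Acta2 read 2575 in Wip1 KO and 839 in WT. In the bile duct sum, Spp1 read 5146 in Wip1 KO and 1569 in WT. Of 6 stellate cell and myofibroblast markers on the array 4 were measured and all 4 were above 0, with a summed intensity over all 6 of 6259 in Wip1 KO and 2276 in WT, while Reln was below background in both channels and Lrat, the vitamin A enzyme of resting stellate cells, was above background in WT only. The 5 bile duct markers summed to 7508 in Wip1 KO and 3076 in WT. The 7 Kupffer cell and macrophage markers ran the other way, all below 0, with 9686 in Wip1 KO and 17399 in WT. The 6 endothelial markers were close, with 5707 in Wip1 KO and 6459 in WT and Cdh5 below background in both channels. Globins and Alas2 of red cells were higher (40062 in Wip1 KO and 19520 in WT). Of the neutrophil markers, S100a8 and S100a9 were above 0, Ly6g was below 0 and Mpo was below background in both channels (5535 in Wip1 KO and 4630 in WT). The part of these marker differences in the ratios of the other groups was not tested.

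Genes of the mitotic spindle were higher in Wip1 KO, while those of replication licensing and the fork were centred on 0. Of 44 measured genes for spindle, kinetochore and cytokinesis 38 were above 0 (median 0.51, or 0.38 over all 61 on the array). Of the 44, 4 were at least 2-fold higher (9.09%, against 1.52% of all measured genes). Mki67, which coats mitotic chromosomes, read 1852 in Wip1 KO and 620 in WT. Cyclin B2 (Ccnb2) read 1240 in Wip1 KO and 434 in WT, Top2a, which untangles chromosomes, read 1154 in Wip1 KO and 494 in WT, and the checkpoint kinase Ttk read 952 in Wip1 KO and 472 in WT. Below the threshold came the kinetochore gene Ndc80 (0.94) and the spindle assembly factor Tpx2 (0.86). Securin (Pttg1), which holds separase inactive, was the lowest at -0.76, with 1842 in Wip1 KO and 3119 in WT.

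Cdc20, the activator of the anaphase-promoting complex, was above background in Wip1 KO only (1096, against 464 in WT), 2.36-fold higher by its readings. Kif2c, a kinesin of the kinetochore, was likewise above background in Wip1 KO only (386, against 174 in WT), 2.21-fold higher by its readings. Another 8 genes of this list were above background in WT only. On the whole array 90 genes were above background in Wip1 KO only and 1904 in WT only. The background varied more around Wip1 KO spots (median SD 53.8, against 39.2 in WT). The 48 licensing and fork genes had 25 above and 23 below 0, none 2-fold apart (median 0.01, or -0.12 with median centring). All 6 subunits of the MCM helicase lay between -0.24 and 0.35. The widest were ribonucleotide reductase Rrm2 (0.80) and thymidine kinase Tk1 (0.76) on the upper side and the clamp loader subunit Rfc3 (-0.67) on the lower side. Of 25 measured cyclins and cell cycle kinases 18 were above 0 (median 0.08, or -0.05 with median centring). Ccnb2 alone of these was at least 2-fold higher (4%, against 1.52% of all measured genes). Cyclin A2 (Ccna2) was at 0.81 and cyclin D1 (Ccnd1), the G1 cyclin, at -0.14.

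The promoters of 2 of these mitotic genes are shown because cell cycle genes that peak late often carry the element TTTGAA, the core of the cell cycle genes homology region, together with CCAAT boxes. Both sequences come from RefSeq on the mouse build GRCm38.p6, run 5′ to 3′ from 250 bases before to 50 bases after the start of transcription, and have matches to TTTGAA or CCAAT on either strand in capitals. The Ccnb2 promoter is at chr9:70421505-70421804, minus strand, and the Mki67 promoter is at chr7:135716330-135716629, minus strand.
Ccnb2: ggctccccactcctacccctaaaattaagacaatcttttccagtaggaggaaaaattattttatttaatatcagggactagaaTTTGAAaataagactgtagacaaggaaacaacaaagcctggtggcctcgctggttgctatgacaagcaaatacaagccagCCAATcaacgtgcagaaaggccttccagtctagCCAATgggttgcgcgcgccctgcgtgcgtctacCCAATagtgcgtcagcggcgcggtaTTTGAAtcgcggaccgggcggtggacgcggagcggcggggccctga
Mki67: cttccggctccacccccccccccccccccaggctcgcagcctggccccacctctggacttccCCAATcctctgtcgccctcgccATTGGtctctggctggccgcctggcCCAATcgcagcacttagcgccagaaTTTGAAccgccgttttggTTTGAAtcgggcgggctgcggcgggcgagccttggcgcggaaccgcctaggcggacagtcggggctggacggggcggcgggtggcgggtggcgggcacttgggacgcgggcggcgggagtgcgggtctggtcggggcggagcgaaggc

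Each window held 5 matches. Of the 37 measured spindle and cytokinesis genes with a promoter in the table, 23 held TTTGAA (62.2%) and 26 held CCAAT (70.3%). Over all 32851 mouse promoters of the same length the shares were 17.9% and 37.4%, and over the 6118 measured genes with a promoter 15.1% and 42.9%. The 23 members with TTTGAA had a median log2 ratio of 0.61 and included the 4 that were at least 2-fold higher, and none of the 14 without it was 2-fold apart (median 0.17). These matches describe the letters of the windows only.

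Targets of p53 were 2-fold apart in 3 of 26 measured genes (11.5%, against 2.29% of all measured genes), in both directions. Of the 26, 18 were above 0 (median 0.14), with Gadd45a (617 in Wip1 KO, 277 in WT) and Phlda3 (458 in Wip1 KO, 227 in WT) at least 2-fold higher and Ddit4, an inhibitor of mTOR complex 1 (221 in Wip1 KO, 470 in WT), at least 2-fold lower. Cdkn1a, the p21 inhibitor of cyclin-dependent kinases, was at 0.67, and the death receptor gene Fas at -0.68. The 8 other measured PPM phosphatases all lay between -0.22 (Ppm1h) and 0.25 (Ppm1m). Of 34 measured genes of DNA damage signalling and repair none was 2-fold apart, and their median of 0.07 turned to -0.07 under median centring. Trp53 itself read 286 in Wip1 KO and 348 in WT.

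The genes on either side of Ppm1d on chromosome 11 were examined because strain-derived sequence can stay linked to a targeted allele. Of the 20 protein-coding genes on each side, 19 were measured, 9 above and 10 below 0, with a median of -0.00. Acaca alone was at least 2-fold higher on its only measured probe (3240 in Wip1 KO, 1360 in WT). Of 17 measured Gadd45 and stress kinase genes 9 were above 0 and 8 below. Gadd45g, which binds a kinase upstream of p38, read 3349 in Wip1 KO and 7856 in WT, opposite to Gadd45a.

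Immediate early genes, the transcripts that cells make first after a growth signal, were mostly higher. Of 23 measured 19 were above 0 (median 0.45, or 0.12 over all 38 genes of the list on the array). At least 2-fold higher were 3 and Gadd45g was at least 2-fold lower, together 17.4%, against 2.29% of all measured genes. The zinc finger gene Egr1 read 1314 in Wip1 KO and 359 in WT, the apoptosis regulator Ier3 read 1330 in Wip1 KO and 605 in WT, and Myc read 556 in Wip1 KO and 268 in WT. The dual-specificity phosphatase Dusp6 and the factor Klf6 were both at 0.85. Id1, a helix-loop-helix inhibitor induced by BMP signals, read 1694 in Wip1 KO and 582 in WT, but its relatives Id2 (0.52) and Id3 (-0.16) were less than 2-fold apart. Among growth factors, Hbegf, a ligand of the EGF receptor, read 592 in Wip1 KO and 269 in WT. The activin chain gene Inhbe read 394 in Wip1 KO and 857 in WT.

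Plasma carriers made by hepatocytes were higher in Wip1 KO. Of 26 measured genes 21 were above 0 (median 0.35). Serpina6, the corticosteroid carrier, read 10236 in Wip1 KO and 2896 in WT and stood beside Serpina7. Ceruloplasmin (Cp, 0.80, with a second probe at -0.07), Ahsg (0.74), transferrin (Trf, 0.73), the vitamin D carrier Gc (0.73) and transthyretin (Ttr, 0.64) followed, with the Wip1 KO spots of Trf and Ttr saturated. The serpin A family as a whole was not higher, with 9 of 13 members below 0 (median -0.30) and Serpina10, an inhibitor of coagulation factor Xa, at 6867 in Wip1 KO and 14000 in WT.

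Members of the alpha-macroglobulin family, broad protease traps of plasma, were all higher. A2m read 831 in Wip1 KO and 215 in WT, Mug2 read 20168 in Wip1 KO and 8219 in WT, and Mug4-ps read 19064 in Wip1 KO and 6992 in WT, while Mug1 was at 0.65. Murinoglobulin genes are near-identical copies, so their probes can share signal, and the probes of Mug2 ranged from 0.37 to 1.29. The 44 measured acute phase genes, macroglobulins included, lay on both sides, with 19 above and 25 below 0 (median -0.08). At the lower end were Saa4 (4598 in Wip1 KO, 12362 in WT), Crp (7822 in Wip1 KO, 14095 in WT) and Saa1 (-0.66), and above 0 were the complement gene C3 (0.69), haptoglobin (Hp, 0.50) and hemopexin (Hpx, 0.31). The 3 measured major urinary protein genes, also near-identical, lay between -0.67 and -0.61. Of the apolipoproteins, Clu read 23890 in Wip1 KO and 11320 in WT and Apoc1 read 36763 in Wip1 KO and 17606 in WT, while Apoa5, which promotes lipolysis of plasma triglycerides, was at -0.82.

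Genes of both liver zones were more often higher than lower. Of 25 measured periportal genes 17 were above 0 with none 2-fold apart (median 0.41), led by Hsd17b6 (0.95), the glutaminase Gls2 (0.87) and the urea cycle enzyme Ass1 (0.72, with a second probe at 0.03). Of 23 measured pericentral genes 16 were above 0 and 3 passed 2-fold (median 0.36, or 0.04 over all 31 on the array). Those were glutamine synthetase Glul (1040 in Wip1 KO, 280 in WT), Cyp1a2 (10887 in Wip1 KO, 3194 in WT) and regucalcin Rgn (19912 in Wip1 KO, 8420 in WT). Cldn2 (-0.76) and the xenobiotic receptor Nr1i3 (-0.65) lay on the other side. Of 60 measured genes for urea synthesis and the breakdown of amino acids 44 were above 0 (median 0.18), with Agxt at 0.90, Prodh at 0.83 and Tdo2 at 0.77.

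**Figure D3:**
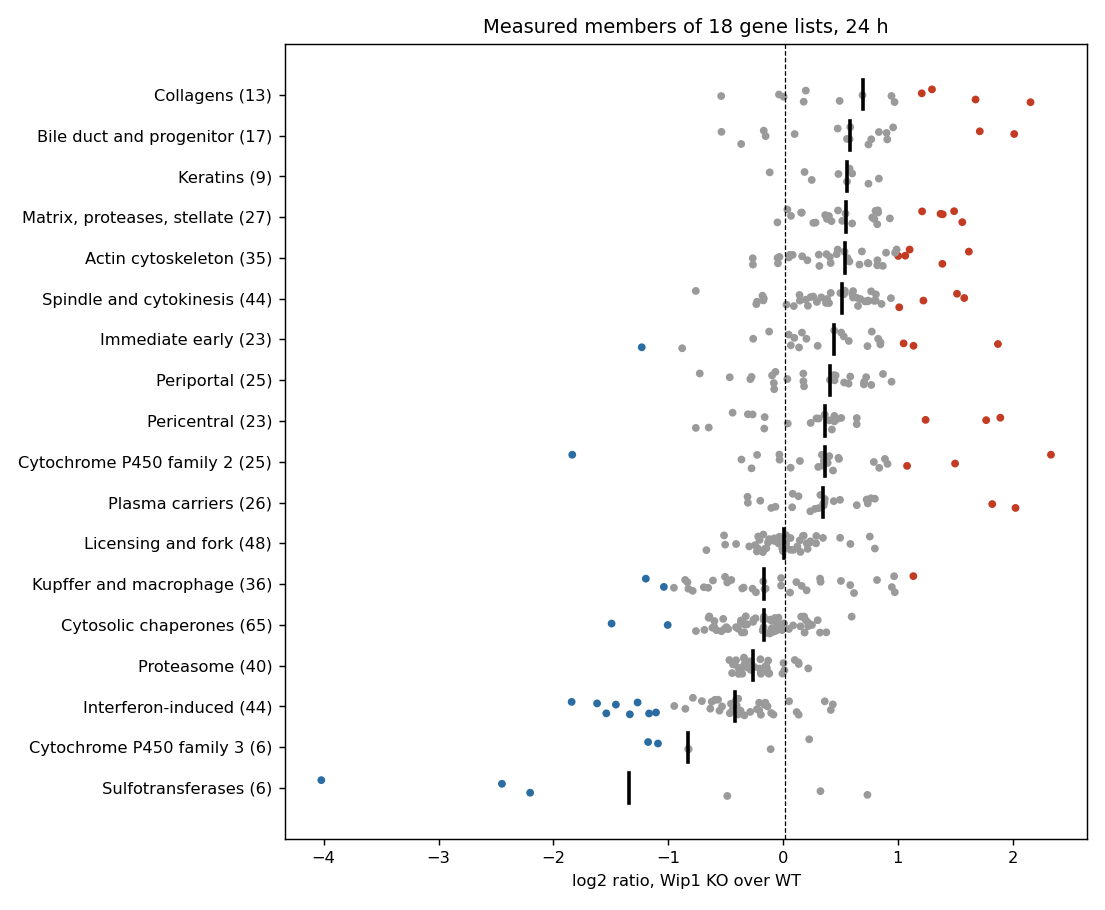
Log2 ratio of Wip1 KO over WT at 24 h (horizontal axis) for the measured members of 18 gene lists (rows, number measured in brackets), 1 point per gene, red at least 2-fold higher, blue at least 2-fold lower, with black bars at the medians and a dashed line at the median of all genes. Collagens have the highest of these medians (0.69) and sulfotransferases the lowest (-1.34).

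Cytochrome P450 families differed in direction. Of 25 measured genes of family 2, whose enzymes oxidise drugs, steroids and fatty acids, 19 were above 0 (median 0.36). Cyp2c55 read 964 in Wip1 KO and 191 in WT, Cyp2c23 read 14405 in Wip1 KO and 5099 in WT, and Cyp2b9 read 5473 in Wip1 KO and 2588 in WT with both probes above 1. Within the same subfamily Cyp2c39 read 3938 in Wip1 KO and 14054 in WT. Cyp2c genes are close copies of each other, as are Cyp3a genes, so their probes can share signal. Family 3, the main drug oxidases of liver, had 5 of 6 measured genes below 0 (median -0.82). Cyp3a41a read 12304 in Wip1 KO and 27779 in WT, Cyp3a11 read 5805 in Wip1 KO and 12350 in WT, and the close copies Cyp3a16 and Cyp3a44 were at -0.83 and -0.82. The peroxisome proliferator target Cyp4a10 read 4405 in Wip1 KO and 9669 in WT.

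Conjugating enzymes were also split. Besides Sult3a2, the oestrogen sulfotransferase Sult1e1 read 1645 in Wip1 KO and 8972 in WT and the hydroxysteroid sulfotransferase Sult2a2 read 1360 in Wip1 KO and 6256 in WT, with its 3 measured probes between -2.27 and -2.15. Sult3a1, a close copy of Sult3a2, was above background in WT only (164 in Wip1 KO, 1980 in WT), 12.1-fold lower by its readings. The other 3 measured sulfotransferases were less than 2-fold apart, from Sult1a1 (-0.49) to Sult2a8 (0.73). Thus 50% of the 6 measured were at least 2-fold lower, against 0.773% of all measured genes. The median of the 6 measured was -1.34, and that of all 16 on the array was -0.15. Glutathione transferases of the alpha class were higher, with Gsta1, Gsta2 and Gsta4 at 1.12, 1.17 and 1.15 and Gsta3 at -0.31. The first pair is near-identical in sequence. Gstm7 of the mu class read 1693 in Wip1 KO and 668 in WT.

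Several of these genes are expressed at different levels in female and male liver. Of 27 measured female-biased genes 7 were at least 2-fold lower, among them Sult3a2, Sult1e1, Sult2a2, A1bg, Cyp2c39 and Cyp3a41a. Cyp2b9 was at least 2-fold higher, so 29.6% were 2-fold apart, against 2.29% of all measured genes. Of the 27, 13 were above and 14 below 0. Of 21 measured male-biased genes Cyp1a2 alone was at least 2-fold higher (4.76%) and none was at least 2-fold lower. Of the 21, 14 were above 0 (median 0.24). The sex of the animals in either channel is not stated, and its part in these ratios was not tested.

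Lipid genes differed by branch. In fatty acid synthesis, acetyl-CoA carboxylase Acaca, fatty acid synthase Fasn (3084 in Wip1 KO, 1319 in WT) and the elongase Elovl6 (857 in Wip1 KO, 391 in WT) were at least 2-fold higher. Thrsp, a lipogenic nuclear protein (321 in Wip1 KO, 706 in WT), and G0s2 were at least 2-fold lower in the same list of 32. Together 15.6% of the 32 were 2-fold apart, against 2.29% of all measured genes. Of 30 measured cholesterol genes 23 were below 0 (median -0.16), with Cyp51 (-0.66), Fdft1 (-0.61), Msmo1 (-0.58) and Fdps (-0.52) at the lower end, and the lysosomal cholesterol exporter Npc1 alone 2-fold apart (3898 in Wip1 KO, 1916 in WT). Hmgcs1, the synthase at the entry of the pathway, was at 0.49. In bile acid handling, Nr0b2 (SHP), the repressor of bile acid synthesis, read 2970 in Wip1 KO and 1058 in WT. Cyp7a1, the rate-limiting enzyme of that synthesis, was above background in WT only (98 in Wip1 KO, 295 in WT). Its WT level was 2.62-fold the lowest level called above background in Wip1 KO. The uptake transporter Slc10a1 was at -0.94. In fatty acid oxidation 25 of 42 measured genes were below 0, with Crot at -0.91 next to Cyp4a10.

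Interferon-induced genes were lower in Wip1 KO. Of 44 measured 38 were below 0, 8 at least 2-fold lower and none at least 2-fold higher (median -0.42). The 8 are 18.2% of those measured, against 0.773% of all measured genes. Usp18, which removes ISG15 and restrains the interferon receptor, read 373 in Wip1 KO and 1338 in WT. Irf7, the factor that amplifies type I interferon, read 324 in Wip1 KO and 942 in WT. Oas1a, a sensor of double-stranded RNA, read 346 in Wip1 KO and 949 in WT, with its probes at -1.46 and -1.34. The receptor transport protein gene Rtp4 read 1472 in Wip1 KO and 3304 in WT, with probes at -1.17 and -0.96.

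The immunity-related GTPases, which attack the vacuoles of intracellular pathogens, held 4 of these 8 genes. Irgm2 read 1593 in Wip1 KO and 4895 in WT with all 3 probes below 0, Irgm1 read 692 in Wip1 KO and 1664 in WT, and Ifi47 read 988 in Wip1 KO and 2128 in WT. Tgtp1 read 436 in Wip1 KO and 1099 in WT, although its second measured probe was at 0.03. Iigp1, of the same family, was at -0.13 with a second probe at -0.70 (6798 in Wip1 KO, 7464 in WT). Ifitm1, Ifitm2 and Ifitm3, membrane proteins that block viral entry, stood between -0.21 and -0.15. Above 0 were Cxcl9 (0.43), Irf5 (0.42), Trim25 (0.36), Psmb8 (0.14), Nampt (0.12) and Irf1 (0.05). A further 12 genes of the list were above background in WT only and none in Wip1 KO only, beside 1904 and 90 genes on the whole array.

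The promoters of 3 of the lower genes are printed to show the interferon-stimulated response element, searched as GAAA, any 2 bases and GAAA again on either strand and given in capitals where it matched. They are RefSeq windows on GRCm38.p6, 5′ to 3′, over the same 300 bases around the start. Oas1a is at chr5:120907476-120907775, minus strand, Irgm1 at chr11:48871371-48871670, minus strand, and Irgm2 at chr11:58214727-58215026, plus strand.
Oas1a: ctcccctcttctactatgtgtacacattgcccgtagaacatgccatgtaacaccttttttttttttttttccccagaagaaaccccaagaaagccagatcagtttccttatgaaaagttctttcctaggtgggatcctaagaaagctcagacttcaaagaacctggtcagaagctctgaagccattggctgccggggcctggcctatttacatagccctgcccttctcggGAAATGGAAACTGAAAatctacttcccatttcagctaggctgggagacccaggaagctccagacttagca
Irgm1: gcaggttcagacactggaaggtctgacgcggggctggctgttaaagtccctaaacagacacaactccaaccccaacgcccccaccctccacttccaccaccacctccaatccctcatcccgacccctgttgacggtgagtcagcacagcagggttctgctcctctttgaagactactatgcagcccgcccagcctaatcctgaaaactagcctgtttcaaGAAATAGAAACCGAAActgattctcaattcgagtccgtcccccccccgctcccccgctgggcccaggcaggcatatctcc
Irgm2: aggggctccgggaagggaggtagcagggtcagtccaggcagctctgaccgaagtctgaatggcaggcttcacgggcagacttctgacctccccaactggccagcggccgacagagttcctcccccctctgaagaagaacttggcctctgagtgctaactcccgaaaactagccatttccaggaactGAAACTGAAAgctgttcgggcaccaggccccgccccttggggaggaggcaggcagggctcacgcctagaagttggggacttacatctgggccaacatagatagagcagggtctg

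Oas1a and Irgm1 each held 2 overlapping matches, and Irgm2 held 1. Among 35 measured interferon-induced genes with a promoter in the table, 12 held the element (34.3%), against 3.44% of all promoters and 3.51% of measured genes. Those 12 had a median log2 ratio of -0.43 and all were below 0 (highest -0.15), and the 23 without it had a median of -0.37. Irf7 and Ifi47, both at least 2-fold lower, had no match in their windows, which says only that these letters are not there.

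Subunits of the proteasome, the protease that degrades ubiquitin-tagged proteins, were lower together and by small amounts. Of 40 measured genes 34 were below 0 and none was 2-fold apart (median -0.26). The widest were the assembly chaperone Psmg3 (519 in Wip1 KO, 717 in WT, -0.47) and the ubiquitin receptor Psmd4 (1039 in Wip1 KO, 1413 in WT, -0.44). In the core, 6 of 7 alpha subunits and 7 of 7 beta subunits were below 0 (medians -0.20 and -0.14), and in the cap 4 of 5 ATPases and 12 of 13 other subunits (medians -0.29 and -0.31). The interferon-inducible subunit Psmb8 (0.14) and the activator Psme1 (0.22, with its lowest probe at -0.11) lay above 0, whereas Psmb9 (-0.29) and Psmb10 (-0.18) did not. Each subunit differed by less than 2 probe SDs, so no subunit by itself stands out from the spread between probes.

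**Figure D4:**
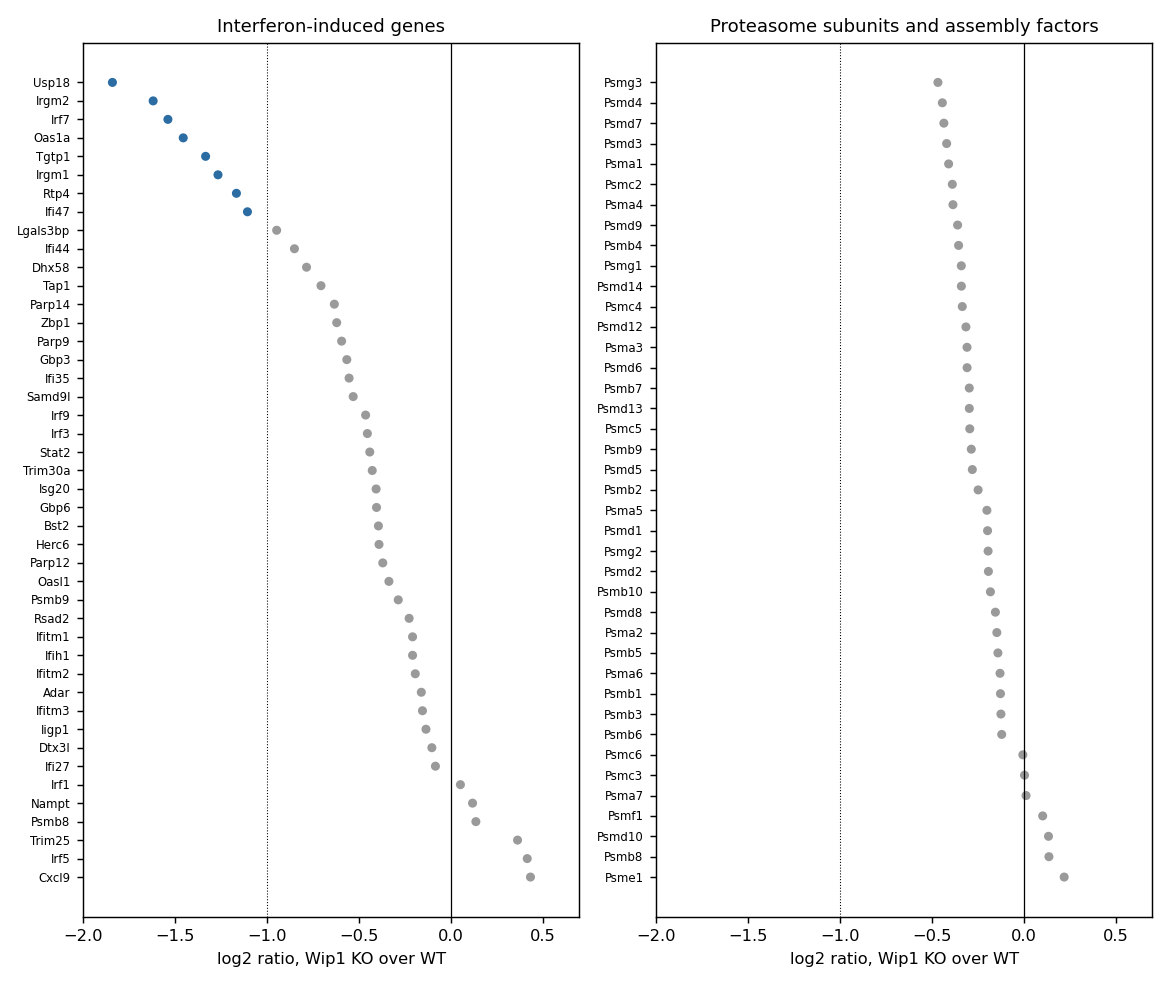
Log2 ratio of Wip1 KO over WT at 24 h (horizontal axis) for each measured interferon-induced gene (left, 44 genes) and each measured proteasome gene (right, 40 genes), ordered by ratio from the lowest at the top, with a dotted line at 2-fold lower. Interferon-induced genes reach -1.84 (Usp18), while proteasome genes lie between -0.47 and 0.22.

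Folding factors shared this direction. Of 65 measured heat shock proteins and cytosolic chaperones 50 were below 0 (median -0.17). All 7 measured subunits of the CCT ring, which folds actin and tubulin, were below 0 (median -0.36), from Cct7 (1454 in Wip1 KO, 2458 in WT) at -0.76 to Tcp1 at -0.10. Hspb8 (11906 in Wip1 KO, 19138 in WT), the Hsp70-Hsp90 adaptor Stip1 (-0.65) and the inducible Hsp90aa1 (-0.61) were also lower. At least 2-fold lower were Dnajb2 (674 in Wip1 KO, 1352 in WT) and Dnajc12. They were 3.08% of the 65 measured, against 0.773% of all measured genes. In the endoplasmic reticulum, Derl3, a factor that moves misfolded proteins out for degradation, read 304 in Wip1 KO and 1634 in WT, with probes at -2.43 and -1.79. Sdf2l1 read 2272 in Wip1 KO and 4582 in WT. Ero1b, an oxidase for disulphide bonds, ran the other way (845 in Wip1 KO, 373 in WT), with its 2 probes at 0.46 and 1.18.

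Tubulins were lower where actins were higher. Of 12 measured tubulin genes 10 were below 0 (median -0.23), with Tubb2a at 3547 in Wip1 KO and 5668 in WT (3 probes from -0.93 to 0.47) and Tubb4b at 4880 in Wip1 KO and 6960 in WT. Tubb6 was the higher of the 2 above 0, at 0.74 (3831 in Wip1 KO, 2298 in WT). Ribosomal proteins were evenly divided, 29 above and 30 below 0 (median -0.02). Of 47 measured translation factors 29 were below 0 and the scaffold gene Eif4g1 was at least 2-fold lower (638 in Wip1 KO, 1588 in WT).

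Macrophage genes lay on both sides of 0, with 14 of 36 measured above it. The Kupffer cell lectin Clec4f read 1753 in Wip1 KO and 4012 in WT, the complement subunit C1qa read 3572 in Wip1 KO and 6360 in WT, and the high-affinity IgG receptor Fcgr1 read 221 in Wip1 KO and 454 in WT. On the other side of the same list of macrophage markers were the iron exporter Slc40a1 (6425 in Wip1 KO, 2926 in WT, probes at 0.30 and 1.14), Hmox1 (0.97), the monocyte receptor Ccr2 (0.95) and Lyz2 (0.82). The median of the list was -0.17, and of these 4 Slc40a1 alone was 2-fold apart. Beta-globin Hbb-b1 read 17121 in Wip1 KO and 7178 in WT with both probes above 1, and alpha-globin Hba-a1 was at 0.93, while the haem enzyme Cpox (-0.98) was lower. The neutrophil protease Prtn3 read 334 in Wip1 KO and 1153 in WT.

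Some genes were above background in a single channel. Above background in Wip1 KO only were 90 genes and in WT only 1904. The median background SD was 53.8 in Wip1 KO and 39.2 in WT, so the channels had different limits of detection. The part of this difference in the 2 counts was not tested. A ratio of 2-fold or more was reached by 11 of the first and 9 of the second. This ratio divides the bright level by the higher of the dim reading and the lowest level called above background in the dim channel. It is not a strict lower bound, because the dim level can lie above its reading where the background varies. Highest in Wip1 KO were Sugct, a glutarate CoA-transferase (582, against 70.2 in WT, 5.75-fold), and a probe named IGHG3 (605, against 115 in WT, 5.26-fold). The platelet chemokine gene Ppbp was 2.56-fold higher (342 in Wip1 KO, 134 in WT). The brightest probe of Xlr3b was 9.56-fold lower (186 in Wip1 KO, 1777 in WT), while its 1 probe above background in both channels was at -1.41. Xlr3b is a near-identical copy of Xlr3a, which read 238 in Wip1 KO and 1776 in WT. The glycogen-targeting phosphatase subunit Ppp1r3c was 2.499-fold lower (130 in Wip1 KO, 325 in WT).

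At 36 h the genes called at 24 h were divided. Of the 122 higher genes 86 were measured on the 36 h array, where 38 were above and 48 below 0, and 53.1% of all genes measured at both times were above 0. There 13 passed the 2-fold threshold upward and 16 downward, as did 2.65% and 2.06% of all genes measured at 36 h (4.72% together). Of the 62 lower genes 57 were measured at 36 h, 26 above and 31 below 0, and there 3 passed the threshold upward and 15 downward. Each time had 1 array of different RNA, so the times could not be compared by a test.

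Among the 13 genes at least 2-fold higher at both times were the plasma protein genes A2m, Mug2, Serpina6, Clu and Apoc1. Mug4-ps, named as a pseudogene and a near-identical copy of the murinoglobulin genes, was also in this set. A2m was at 1.95 at 24 h and 2.38 at 36 h, Mug2 at 1.29 and 2.44, and Serpina6 at 1.82 and 1.47. The enzymes Cyp1a2 (1.77 and 1.39), Inmt (1.31 and 1.02) and Upp2 (1.33 and 1.95) were also among them. The 15 genes at least 2-fold lower at both times included Sult3a2 at -4.02 and -5.01 and Sult1e1 at -2.45 and -2.53. Irgm2 (-1.62 and -1.05) and Irf7 (-1.54 and -1.35) were the interferon-induced genes of that set. Among groups, the spindle genes measured at both times had a median of -1.14 at 36 h, and the actin cytoskeleton genes of -0.45. Interferon-induced genes had a median of -0.20 at 36 h, but the 5 immunity-related GTPases among them had a median of 0.41, with Irgm1 at 0.42, Ifi47 at 0.55 and Tgtp1 at 0.41. Proteasome genes were at 0.02.

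**Figure D5:**
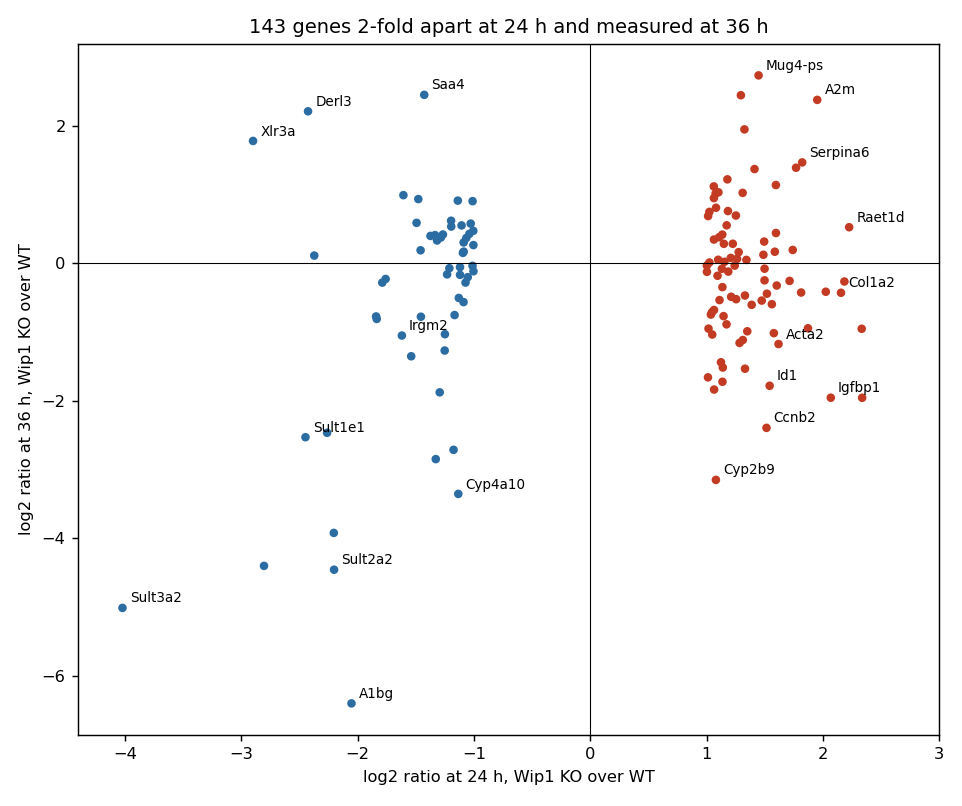
Log2 ratio of Wip1 KO over WT at 24 h (horizontal axis) and at 36 h (vertical axis) for the 143 genes at least 2-fold apart at 24 h and measured on both arrays, red where higher and blue where lower in Wip1 KO at 24 h. Igfbp1 and Ccnb2 lie above 0 at 24 h and below 0 at 36 h, and Sult3a2 and A1bg lie below 0 at both times.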

How the data were processed

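Total RNA of liver was reverse transcribed with dye-labelled nucleotides, per the labels' protocols, and the authors deposited, per the file headers, a scanner table of foreground and background intensity per spot and, in a value table, a linear ratio per probe. How that ratio was normalised is not given in the sources used here. The deposited ratios carry no probe names, so their rows were matched by the order that correlated with the ratios computed here. In that order their log2 had a correlation of 0.971 with the log2 ratios computed here (10479 probes), and of 0.026 when shifted by 1 row. Their direction is therefore also Wip1 KO over WT, but the correlation is no separate check of the match. Each group is 1 channel of 1 array, without replicate or dye swap, so a dye effect and a genotype effect cannot be told apart. Arrays give no read depth, and their number limits the precision.

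From the deposited intensity, background was corrected with limma 3.58.1 in R 4.3.3 (normexp, offset 50) and ratios were normalised by loess, with 1776 control spots at weight 0. The offset understates the ratios of dim genes. The array held 31920 gene probes, of which 10608 (33.2%) passed the filter of 2 background SDs in Wip1 KO and 13224 (41.4%) in WT. On gene probes, 5 spots were saturated in Wip1 KO and 1 in WT. Names on the array were updated through RefSeq symbols (14166 by symbol, 3898 by synonym, 1372 unmatched and kept as named, 62 with several hits and kept). A gene with several probes was read on its brightest, by the mean brightness over the 24 h and 36 h arrays. A gene was called at a 2-fold difference, and no p-value was computed. The steps were tested on a simulated array, judged only on probes that were bright in WT, so dim genes were not covered.

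The genes named were Ppm1d and the 15 highest and 15 lowest ratios among brighter genes. Up to 6 leading members of each of 69 gene lists and all 2-fold members of the lists were added. The 10 largest ratios each way among genes above background in a single channel were added too, as were close copies of any named gene. Genes named outside this rule were chosen after their values were seen. Members and lists were chosen with earlier results of these data known. Besides the elements shown, the TATA box (TATAAA), the variant TTTAAA, the E-box (CACGTG), the ETS site (CCGGAAG), and the STAT, heat shock, antioxidant, cAMP and serum response elements were searched on both strands. Of all promoters 0.0731% to 41.3% held them. Alternatives were plain subtraction, no background correction, median centring, print-tip loess, no filter, a filter of 5 background SDs, the mean of probes and the deposited ratio. A few genes are not reported here.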

Additional observations from a re-analysis of the deposited data

Results flagged for a closer look

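In 19 genes the ratio was at least 2-fold on both arrays and in opposite directions. With 1 array per time the difference between the times was not tested. Higher at 24 h and lower at 36 h was the platelet chemokine gene Pf4, at 2.34 at 24 h and -1.96 at 36 h (815 in Wip1 KO and 161 in WT at 24 h). Igfbp1 was at 2.07 and -1.96, and Id1 at 1.54 and -1.78. Genes of dividing cells in this set were Mki67 (1.58 and -1.02), Ccnb2 (1.52 and -2.40) and Ttk (1.01 and -1.66). Contractile and cytoskeletal genes were Acta2 (1.62 and -1.18) and Tagln (1.06 and -1.84), beside the galectin gene Lgals1 (1.31 and -1.12). Enzymes and transporters were Ptgr1 (1.33 and -1.53), the lactate carrier Slc16a3 (1.28 and -1.16), Gsta1 (1.12 and -1.44) and Cyp2b9 (1.08 and -3.15). The kinase gene Map4k4 (1.14 and -1.52), Ier3 (1.14 and -1.72) and 1700047G07Rik (1.05 and -1.04) completed the genes higher at 24 h. Lower at 24 h and higher at 36 h were Saa4 (-1.43 and 2.45), Derl3 (-2.43 and 2.21) and Xlr3a (-2.90 and 1.78).

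Probes that could not be given a gene name here also carried signal. Of 7551 such probes 1429 passed the background filter at 24 h. Among these, Wip1 KO exceeded WT by 2-fold or more for 40 and fell below it by as much for 15 (3.85% together).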

How the results depend on the processing

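No paired analysis was possible because each time has 1 array, and for the same reason no array could be left out. Against 122 genes at least 2-fold higher, plain background subtraction gave 220, no background correction 202 and the deposited ratios 224. Against 62 lower, plain subtraction gave 94. The collagen median of 0.69 became 1.08 with plain subtraction, 1.15 with the deposited ratios and 0.12 with no filter, where most members are below background. With no filter the sulfotransferase median was -0.15 (-0.49 with the stricter filter) and that of immediate early genes 0.12. Of 552 list medians over the alternatives 47 changed sign. For 28 of these the reported median was within 0.0473 of 0. The other 19 follow. With median centring they were DNA damage (-0.067), cyclins (-0.052), histones (-0.042), hepatocyte transcription factors (-0.082), Cyp4 (-0.026), Id and TGF beta genes (-0.024), the respiratory chain (-0.019) and amino acid transporters (-0.031). With no filter they were DNA damage (-0.024), histones (-0.00739), neutrophil genes (0.066), lymphocyte markers (-0.015), erythroid genes (-0.000907), Cyp4 (-0.14), IGF and growth hormone genes (-0.027) and amino acid transporters (-0.00697). Neutrophil genes were at 0.00324 with print-tip loess, IGF and growth hormone genes at -0.00520 with the mean of probes, and flavin monooxygenases at -0.014 with the stricter filter. The causes were not tested. Without a change of sign, 493 list medians moved by less than 1 probe SD. Of 3027 values of 387 named genes, 2886 moved by less than 1 probe SD and 141 further. The sign changed in 4 of them, all of genes less than 2-fold apart (Ilkap, Pptc7 and Ugt3a2).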

Other observations

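Genes in none of the gene lists made up 60 of the 122 higher and 27 of the 62 lower genes, and those named here were chosen after their values were seen. The integrin chain Itga8 read 672 in Wip1 KO and 230 in WT, and the calcification inhibitor Mgp read 841 in Wip1 KO and 352 in WT. Caveolin 1 (Cav1) read 703 in Wip1 KO and 323 in WT, and the galectin gene Lgals1 read 6760 in Wip1 KO and 2724 in WT. Pf4 of platelets read 815 in Wip1 KO and 161 in WT, Cxcl3 read 444 in Wip1 KO and 141 in WT, and the lymphoid chemokine copies Ccl21b and Ccl21c read 865 and 793 in Wip1 KO and 195 and 208 in WT. The Ccl21 genes are near-identical, and their probes cannot be taken as separate measurements.

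Among the lower ones, A1cf, a partner of the enzyme that edits apolipoprotein B RNA, read 227 in Wip1 KO and 1177 in WT on 1 measured probe of 2. The ubiquitin and ISG15 conjugating enzyme Ube2l6 read 585 in Wip1 KO and 1214 in WT, in the direction of the interferon-induced genes. The surface protein gene Ly6a read 1931 in Wip1 KO and 4596 in WT, and it was at -1.25 at 24 h and -1.27 at 36 h. Aoc3, an amine oxidase of vessel walls, read 1446 in Wip1 KO and 3747 in WT on its brightest probe, but its 3 measured probes ranged from -1.37 to 0.32. Dffa, the inhibitor of the apoptotic nuclease, read 299 in Wip1 KO and 1433 in WT and was at -2.26 at 24 h and -2.47 at 36 h.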
